A study of Homo sapiens with 4 samples.

Results

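ALK and the neurotrophin receptors were followed after knockdown of METTL14 in SK-N-BE(2), a long-established cell line from human neuroblastoma that carries extra copies of MYCN. The 6 members were taken by gene symbol from the 60671 genes of the count table: the receptor tyrosine kinase ALK, its close relative LTK, the TRK receptors NTRK2 (TrkB) and NTRK3 (TrkC), the shared neurotrophin receptor NGFR (p75NTR), and BDNF, the ligand of TrkB. All 6 were found by a single Ensembl identifier each. The rule used no measured value, but the members were chosen with earlier results of these data known. In this line NGFR fell to 50.4% and ALK to 80.5% of the control level. BDNF and NTRK3 did not pass the test, and LTK and NTRK2 were too weak to test.

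Libraries were made from total RNA with an mRNA kit and sequenced on an Illumina instrument. The control libraries (shNC, n = 2) came from cells carrying a scrambled short hairpin RNA, and the knockdown libraries (shMETTL14, n = 2) from cells carrying a hairpin against METTL14, which encodes the partner of METTL3 in the complex that writes N6-methyladenosine (m6A) on mRNA. According to the study's methods, hairpins were delivered with a lentiviral vector and stable lines were selected with puromycin, so both groups share that treatment. The labels do not say which METTL14 hairpin was sequenced or whether replicates were separate cultures, so p-values measure only the spread between these libraries, which may be technical. An effect of METTL14 loss and an effect of that hairpin or of the selected line cannot be told apart.

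Receptor tyrosine kinases such as ALK, LTK and the TRK receptors pair up when they bind ligand, phosphorylate each other, and recruit adaptors that switch on the RAS and PI3K pathways. NGFR has no kinase domain. It binds all neurotrophins and their uncleaved precursors, acts with TRK receptors or with sortilin, and can signal for survival or death. In neuroblastoma, mutated or amplified ALK is a known driver, and TrkB with BDNF is known from aggressive tumours.

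Between 18925786 and 19886214 read counts per library fell in genes, and 16309 genes passed the filter on low counts. Replicates lay close, with a biological coefficient of variation of 3.45%. Per gene, the mean chi-square (near 1 from sampling noise alone) was 2.80 for the shNC pair, 2.30 for the shMETTL14 pair and 34.1 to 35.2 across groups, so no library repeated another. METTL14 itself was measured at 37.8 and 39.4 CPM (counts scaled to a common library size by the TMM method) in the shNC libraries and at 15.5 and 16.7 CPM in the shMETTL14 libraries. This was 41.7% of the control level, and the log2 fold change (shMETTL14 over shNC) came to -1.26 ± 0.0832 (SE; edgeR adjusted p = 3.6e-11). Calls required an adjusted p under 0.05 over the whole table, which 52.5% of tested genes met. Markers of the labelled cell type were present: the sum of 6 noradrenergic neuroblastoma genes (PHOX2A, HAND2, GATA3, ISL1, DBH and TH) was 1966 to 1969.7 CPM in shNC and 1679 to 1695 CPM in shMETTL14.

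The complex of METTL3 and METTL14 acts on adenosines in short motifs, of which GGACT is the best known. The transcript sequence of each member was searched for these letters. The transcript with the longest coding sequence was taken from GENCODE 29 (GRCh38), on its own strand only. Methylation was not measured in these libraries, so a match describes the sequence and is neither a methylated site nor a cause of any change. The match nearest the stop codon of each member is printed with 8 bases on either side and with the motif in capitals. These windows are shown because they let the members be compared with each other at the motif on which that complex acts.
ALK: atcagcctGGACTgctacctc
LTK: gagggtaaGGACTgaggcact
NTRK2: aaaatcggGGACTttgggatg
NTRK3: aagattggGGACTtcggcatg
NGFR: agagccatGGACTctacactg
BDNF: gacccatgGGACTctggagag

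The ALK motif was coding, in exon 10 of 29 at chr2:29275414-29275418 on the minus strand, at -2965 bases relative to the stop codon. That of LTK lay in the 3′ untranslated region, in exon 20 of 20 at chr15:41503968-41503972 on the minus strand, 26 bases after the stop codon. Those of both TRK members were coding, at chr9:84955472-84955476 on the plus strand in exon 17 of 19 for NTRK2 and at chr15:87929232-87929236 on the minus strand in exon 15 of 19 for NTRK3. The windows of NTRK2 and NTRK3 shared 17 of 21 bases, and those of ALK and LTK shared 8. The motif itself matches in every pair by construction, and the ALK and LTK windows lie in different regions of their transcripts. These numbers therefore do not measure how related the genes are. The NGFR motif lay in the 3′ untranslated region, in exon 6 of 6 at chr17:49513430-49513434 on the plus strand, 423 bases after the stop codon. The BDNF motif was coding, in exon 3 of 3 at chr11:27658439-27658443 on the minus strand.

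The members differed in how many such motifs they held and where. NGFR had 5, all in the 3′ untranslated region, and ALK had 8, of which 6 were coding and 2 lay in the 5′ untranslated region. NTRK2 had 11, LTK and NTRK3 had 7 each, and BDNF had 1. Per kilobase of transcript this came to 2.55 for NTRK3, 2.30 for LTK, 1.46 for NGFR, 1.29 for ALK, 1.27 for NTRK2 and 0.246 for BDNF. Of 12772 tested coding genes, 91.3% held at least 1 GGACT, with a median of 0.938 per kilobase and quartiles of 0.569 and 1.40. Within 400 bases of the stop codon a motif was present in 55.5% of these genes, and among the members in LTK and NTRK2. None of the tested members had one there, whether called (NGFR and ALK) or not (BDNF and NTRK3). The NTRK3 transcript has only 146 bases of 3′ untranslated region, so its window was cut short.

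ALK (ENSG00000171094), the receptor of the ALKAL ligands, is encoded at chr2:29192774-29921566 on the minus strand, and none of its exons overlap another gene. It was measured at 55.8 and 49.5 CPM in the shNC libraries and at 41.8 and 42.9 CPM in the shMETTL14 libraries. Both knockdown libraries lay below both controls. The means were 52.6 ± 4.44 and 42.4 ± 0.771 CPM (SD, n = 2), a log2 fold change of -0.31 ± 0.0674 (SE; 95% interval -0.45 to -0.17; edgeR adjusted p = 4.8e-04). Of all tested genes, 26.0% had a lower fold change, so the change in ALK was moderate for this comparison, in which 25.3% of genes were called lower. Leaving out each library in turn gave values from -0.39 to -0.23, and ALK was called each time. In bulk RNA, fewer cells expressing a receptor and less RNA in each cell cannot be told apart, for ALK as for the other members.

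NGFR (ENSG00000064300), at chr17:49495293-49515017 on the plus strand, showed the largest change of the tested members. It stood at 74.9 and 77.9 CPM in shNC and at 39.0 and 38.0 CPM in shMETTL14, and the groups were far apart compared with the spread within them. The means were 76.4 ± 2.13 and 38.5 ± 0.733 CPM (SD, n = 2), for a log2 fold change of -0.99 ± 0.0581 (SE; 95% interval -1.11 to -0.87; edgeR adjusted p = 5.8e-12). No more than 6.64% of tested genes had a lower fold change. It lay just short of the 2-fold limit, which 8.79% of tested genes passed together with the adjusted p. An unnamed transcript (ENSG00000279036) covers 924 bases of the NGFR exons on the opposite strand, which is 22.3% of their length. It had 20 and 18 counts in shNC and 5 and 3 in shMETTL14, against 1492 and 1491 counts for NGFR in shNC and 764 and 731 in shMETTL14. Whether counting used the strand is not given in the sources used here, so reads of that stretch cannot be assigned to either strand with certainty. The antisense gene NGFR-AS1 had between 0 and 2 counts per library.

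NGFR is also made by Schwann cells and mesenchymal cells, so markers of other cell types were read beside it. Of 5 Schwann cell genes, the defining regulator SOX10 had no count in any library, and the summed level of the list was 4.86 to 5.82 CPM in shNC and 3.78 to 4.26 CPM in shMETTL14. The 7 mesenchymal-type neuroblastoma genes summed to 2474 to 2545 CPM and 2536 to 2595 CPM in the same order. Most of that sum was VIM, which was not called. Of the 6 tested genes, 4 were called, in both directions: FOSL1 at 1.39, FN1 at 0.46, CD44 at -0.15 and YAP1 at -2.06 on the log2 scale. YAP1 rested on only 16 and 10 counts in shNC and 6 and 0 in shMETTL14, so the size of its change is uncertain (SE 0.742). The regulator PRRX1 had 3 counts or fewer in every library. The 4 fibroblast genes summed to 413 CPM in both shNC libraries and to 391 and 398 CPM in the shMETTL14 libraries, with LUM and DCN not called. PDGFRA, a growth factor receptor of fibroblasts and other mesenchymal cells, fell from 16.5 CPM in both shNC libraries to 3.12 and 4.42 CPM (log2 fold change -2.13 ± 0.145, SE; edgeR adjusted p = 6.6e-11), and its relative PDGFRB fell by 0.19 on the log2 scale. The 4 immune and endothelial genes summed to between 1.91 and 2.56 CPM. All 6 noradrenergic genes were called, with 5 lower and ISL1 higher, against 52.5% of all tested genes called. The part of any of the marker genes above in the changes of ALK and NGFR was not tested.

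**Figure D1:**
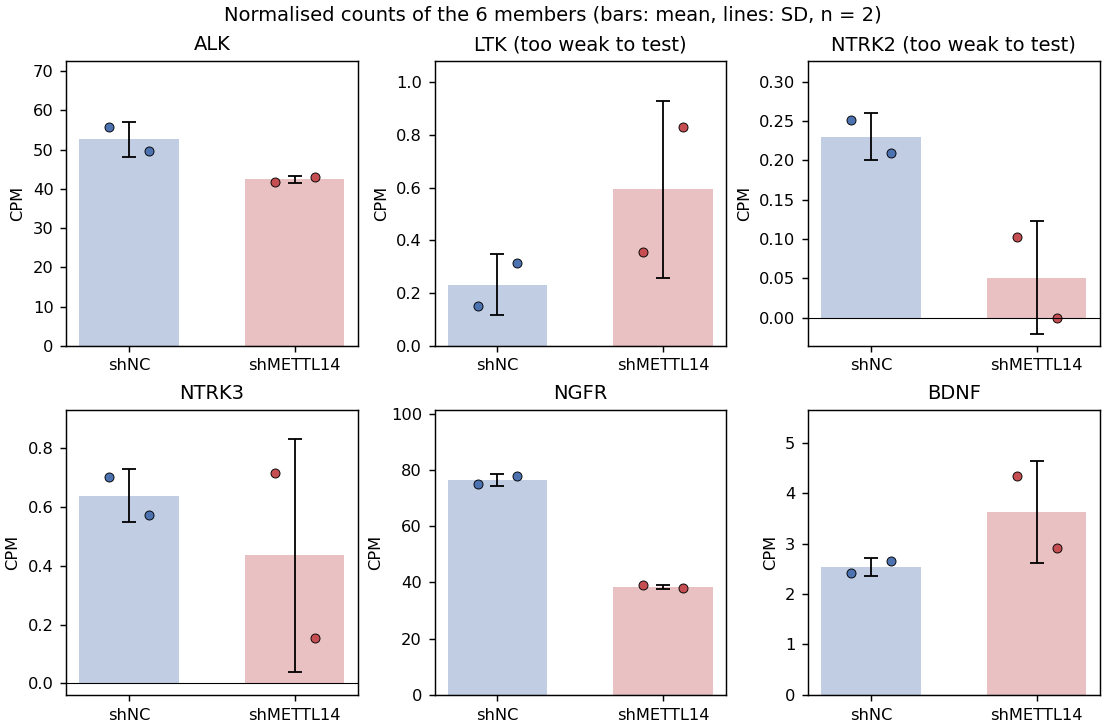
CPM of each member in the 2 shNC and 2 shMETTL14 libraries, with points for libraries, bars for group means, lines for the SD, and a separate vertical axis for each gene. ALK and NGFR lie lower in both shMETTL14 libraries, at 41.8 to 42.9 and 38.0 to 39.0 CPM, while LTK, NTRK2 and NTRK3 remain under 1 CPM throughout.

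BDNF (ENSG00000176697), the ligand that activates TrkB and also binds NGFR, is encoded at chr11:27654893-27722058 on the minus strand. It was measured at 2.41 and 2.66 CPM in shNC and at 4.34 and 2.91 CPM in shMETTL14. Both knockdown libraries lay above the controls, the second by less than the knockdown libraries differed from each other. The log2 fold change was 0.52 ± 0.246 (SE; 95% interval 0.01 to 1.03), and BDNF was not called (edgeR adjusted p = 0.0832). The size of the change depended on which shMETTL14 library was used. Without library 1, the higher of the 2, the log2 fold change was 0.20. Without library 2, which lay near the controls, it was 0.78. The antisense gene BDNF-AS overlaps 701 bases of the BDNF exons, or 9.06% of their length. It had 143 and 138 counts in shNC and 71 and 56 in shMETTL14, and changed by -1.14 ± 0.178 on the log2 scale (SE; edgeR adjusted p = 1.4e-05), whereas BDNF had 48 and 51 counts in shNC and 85 and 56 in shMETTL14. Without knowledge of the strand setting, reads of the shared stretch cannot be told apart.

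NTRK3 (ENSG00000140538), the receptor of neurotrophin-3, lies at chr15:87859751-88256768 on the minus strand and passed the filter narrowly. It had 14 and 11 counts in shNC and 14 and 3 in shMETTL14, so the groups overlapped. Its log2 fold change of -0.54 ± 0.577 was not called (SE; 95% interval -1.74 to 0.66; edgeR adjusted p = 0.455). The interval spans changes in both directions. The 2 shMETTL14 libraries decided even the sign, since the value was 0.17 without library 2 and -1.99 without library 1, and neither was called.

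NTRK2 (ENSG00000148053), the receptor of BDNF, lies at chr9:84668551-85027070 on the plus strand. It had 5 and 4 counts in the shNC libraries and 2 and 0 in the shMETTL14 libraries. Both knockdown libraries were at or under 3 counts, the limit that a count of 0 allows, which equals 0.151 to 0.157 CPM at this depth. The 9 counts of shNC against 2 of shMETTL14 gave a ratio of 0.224 after scaling, with a 95% exact counting interval of 0.0235 to 1.08. A change in NTRK2 was therefore not detected, although the counts of the groups did not overlap.

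LTK (ENSG00000062524), the nearest relative of ALK, lies at chr15:41503638-41513887 on the minus strand. It had 3 and 6 counts in shNC and 7 and 16 in shMETTL14. The groups did not overlap, but the knockdown libraries differed from each other by more than the controls did. The sums of 9 and 23 counts gave a ratio of 2.57 with a 95% exact counting interval of 1.15 to 6.32, which leaves out the spread between libraries. When the filter on low counts was dropped, edgeR gave a log2 fold change of 1.35 and an adjusted p of 0.162, so LTK was not called. Intervals and limits from counts cover counting error only.

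Counted together, 2 of the 4 tested members were called, both of them lower, against 52.5% of all tested genes called. The groups did not overlap for 3 of the 4, against 75.5% of all tested genes. None of the 4 passed the 2-fold limit, although NGFR crossed it under 5 of 11 alternatives, among them upper quartile scaling at -1.06 and the fits without shNC library 1, at -1.02, or without shMETTL14 library 1. The median log2 fold change was -0.43 over the 4 tested members, which leaves out LTK and NTRK2. With so few members, these shares do not set the receptors apart from other genes.

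**Figure D2:**
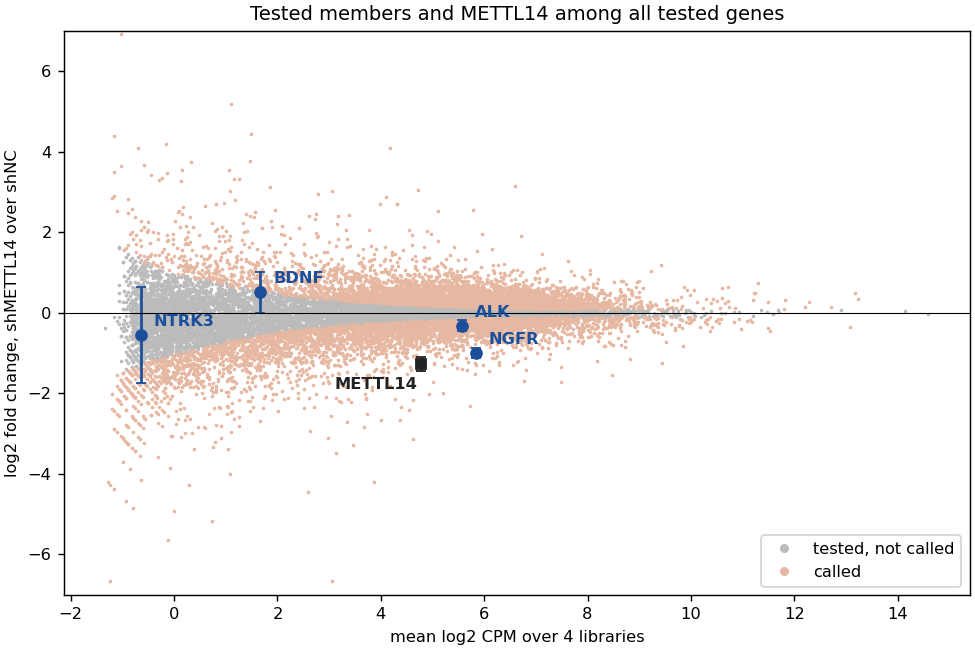
Log2 fold change (shMETTL14 over shNC) of each of the 16309 tested genes against its mean log2 CPM over 4 libraries, with called genes in orange and uncalled genes in grey, and with 95% intervals for the tested members (blue) and METTL14 (black). NGFR at -0.99 and ALK at -0.31 lie among the called genes, whereas the intervals of BDNF and NTRK3 are wide at their low levels.

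Levels of different genes were compared per length, as TPM, in which counts are divided by the summed exon length of the gene and scaled to a common total. In shNC, NGFR stood highest at 60.4 ± 1.26 TPM, followed by ALK at 23.5 ± 2.14 TPM (SD, n = 2). BDNF followed at 1.08 ± 0.0691 TPM and LTK at 0.218 ± 0.107 TPM. NTRK3 at 0.0784 ± 0.0116 TPM and NTRK2 at 0.0371 ± 0.00504 TPM were the lowest. In shMETTL14 the means stood in the same order, with NGFR at 28.2 ± 0.686 TPM, ALK at 17.5 ± 0.225 TPM and BDNF at 1.42 ± 0.405 TPM, and with LTK, NTRK3 and NTRK2 at 0.516 ± 0.289, 0.0495 ± 0.0451 and 0.00764 ± 0.0108 TPM. Library values of neighbouring genes did not overlap in shNC, nor in shMETTL14 down to LTK. However, in shNC LTK rests on 3 and 6 counts, NTRK3 on 14 and 11, and NTRK2 on 5 and 4. In shMETTL14, NTRK3 and NTRK2 rest on as few as 3 and 0 counts. The order of LTK, NTRK3 and NTRK2 in shNC, and that of NTRK3 and NTRK2 in shMETTL14, is thus not established. The annotated exons of NTRK2 and NTRK3 sum to 20363 and 26750 bases and include those of truncated forms, so a level per length understates a single short isoform, and counts per gene do not separate kinase-bearing from truncated receptors. RNA of TrkB and TrkC was thus at the edge of detection in this line.

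The balance of receptors within a library does not depend on how libraries are scaled to each other. The TPM of NGFR over that of ALK was 2.38 and 2.79 in the shNC libraries and 1.65 and 1.57 in the shMETTL14 libraries. The ratio did not overlap between groups, and with 2 libraries against 2 an exact two-sided permutation test cannot go below p = 0.333.

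**Figure D3:**
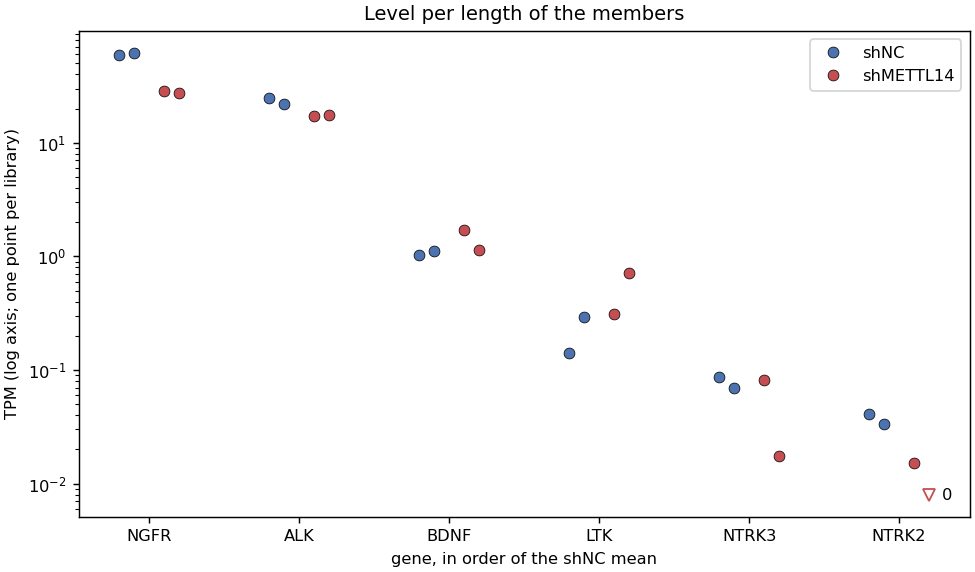
TPM (log axis) of the 6 members in each library, in order of the shNC mean, with an open triangle for the library without a count of NTRK2. NGFR and ALK lie above 17 TPM in every library, BDNF lies between 1.03 and 1.71 TPM, and the other 3 members lie under 1 TPM.

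The other genes of these pathways were read from a list of 57 ligands, coreceptors, processing enzymes, adaptors, NGFR partners and regulators of receptor turnover. Of the 48 tested, 35 were called, with 24 higher and 11 lower, which is 72.9% against 52.5% of all tested genes (27.2% higher, 25.3% lower). The median log2 fold change was 0.16, against -0.00095 over all tested genes. Of the 35, 3 also passed the 2-fold limit: PSEN2, SORCS2 and LRIG1. The balance of directions depended on the scaling: with upper quartile scaling 5 of the higher calls were lost and 5 lower calls were gained. DESeq2, which called 5546 genes of the whole table against 8561 with edgeR, called 28 of the list. The share over all tested genes was not matched to the list by level of expression. The shares here and in the groups below therefore do not set these genes apart from other genes.

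On the ligand side, ALKAL1 and ALKAL2, the activating ligands of ALK and LTK, had no count in any library, which allows up to 0.157 CPM. The neurotrophins NTF3 and NTF4 had 1 count each in all 4 libraries together. PTN (pleiotrophin) and MDK (midkine), heparin-binding growth factors that have been linked to ALK, were both abundant and both rose. PTN stood at 197 and 201 CPM in shNC and 264 in both shMETTL14 libraries (log2 fold change 0.41 ± 0.0398, SE; edgeR adjusted p = 1.8e-08), and the rise of MDK on that scale was 0.26 ± 0.0415 (adjusted p = 2.1e-05).

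Among coreceptors, the sortilin family that binds neurotrophin precursors beside NGFR moved in both directions. SORT1 (sortilin) rose by 0.51 ± 0.0486 on the log2 scale (SE; edgeR adjusted p = 1.3e-08), from 80.2 and 75.8 CPM to 109 and 113 CPM. Its relatives SORL1, SORCS1 and SORCS2 fell, with log2 fold changes of -0.56 ± 0.0501, -0.54 ± 0.0530 and -1.40 ± 0.307 (SE). LINGO1, which joins NGFR in the receptor complex for myelin inhibitors, fell by 0.47 on the log2 scale (edgeR adjusted p = 0.0110), a call that DESeq2 did not make (adjusted p = 0.151). Its complex partner RTN4R had a log2 fold change of -0.30 and was not called (adjusted p = 0.0749), but was called lower under 5 of 11 alternatives, among them upper quartile scaling (adjusted p = 0.0310) and leaving out shNC library 1 (0.0134) or shMETTL14 library 2 (0.0249). In all, 5 of the 6 tested genes of this group were called, 1 higher and 4 lower, against 52.5% of all tested genes called.

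Of the enzymes that process ligands and receptors, all 5 tested were called higher, against 27.2% of all tested genes. However, ADAM17 and NCSTN lost their calls with upper quartile scaling (edgeR adjusted p = 0.188 and 0.107) and with DESeq2 (0.167 and 0.102). FURIN, which cleaves neurotrophin precursors, had a log2 fold change of 0.40, and the shedding protease ADAM10 one of 0.34. PSEN2, a catalytic subunit of the γ-secretase that cuts the stub of NGFR after shedding, rose from 69 and 65 counts to 145 and 146 (log2 fold change 1.13 ± 0.169, SE; edgeR adjusted p = 8.1e-06).

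Of 21 tested adaptors and effectors of TRK and ALK signalling, 13 were called, 9 higher and 4 lower. This is 61.9% against 52.5% of all tested genes. Among the higher ones, SH2B2 and CRK lost their calls with upper quartile scaling (edgeR adjusted p = 0.107 and 0.125) and with DESeq2 (0.259 and 0.141). The adaptors SHC1 and GRB2, which link activated receptors to RAS, had log2 fold changes of 0.49 and 0.44, and the docking protein IRS2 one of 0.84 ± 0.0449 (SE; edgeR adjusted p = 1.2e-12). The RAS exchange factors SOS1 and SOS2, which GRB2 recruits, fell by 0.28 and 0.37 on the log2 scale. IRS1 fell by 0.33 and KIDINS220, a scaffold beneath TRK receptors and NGFR, by 0.17.

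Of the 9 intracellular partners of NGFR, 6 were called, 5 higher and 1 lower, which is 66.7% against 52.5% of all tested genes. TRAF6 at -0.18 and RIPK2 at -0.22 were not called (edgeR adjusted p = 0.0820 and 0.0655). With upper quartile scaling both were called lower (edgeR adjusted p = 0.0196 and 0.0183). ARHGDIA, an inhibitor of small GTPases to which NGFR binds, had the largest change at 0.77 ± 0.0393 (SE; edgeR adjusted p = 5.2e-13), while BEX3, a small adaptor that binds the NGFR death domain, had 0.22. An unnamed antisense gene covers 762 bases of the ARHGDIA exons on the opposite strand, which is 26.2% of their length. The partner that fell was SALL2, by 0.27 on the log2 scale, a call lost with DESeq2 (adjusted p = 0.0832) and without shMETTL14 library 1 (edgeR adjusted p = 0.0971). Among genes of receptor turnover, 4 of 5 were called, against 52.5% of all tested genes. LRIG1, a membrane protein that restrains receptor tyrosine kinases, fell from 297 and 240 counts to 90 and 68 (log2 fold change -1.75 ± 0.152, SE; adjusted p = 2.9e-09), and it shares 907 exon bases with SLC25A26 on the opposite strand. The ubiquitin ligases CBL and CBLB moved apart, at -0.26 and 0.47. The remaining call, PTPN1 at 0.18, was lost with upper quartile scaling (edgeR adjusted p = 0.0781) and with DESeq2 (adjusted p = 0.0785).

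**Figure D4:**
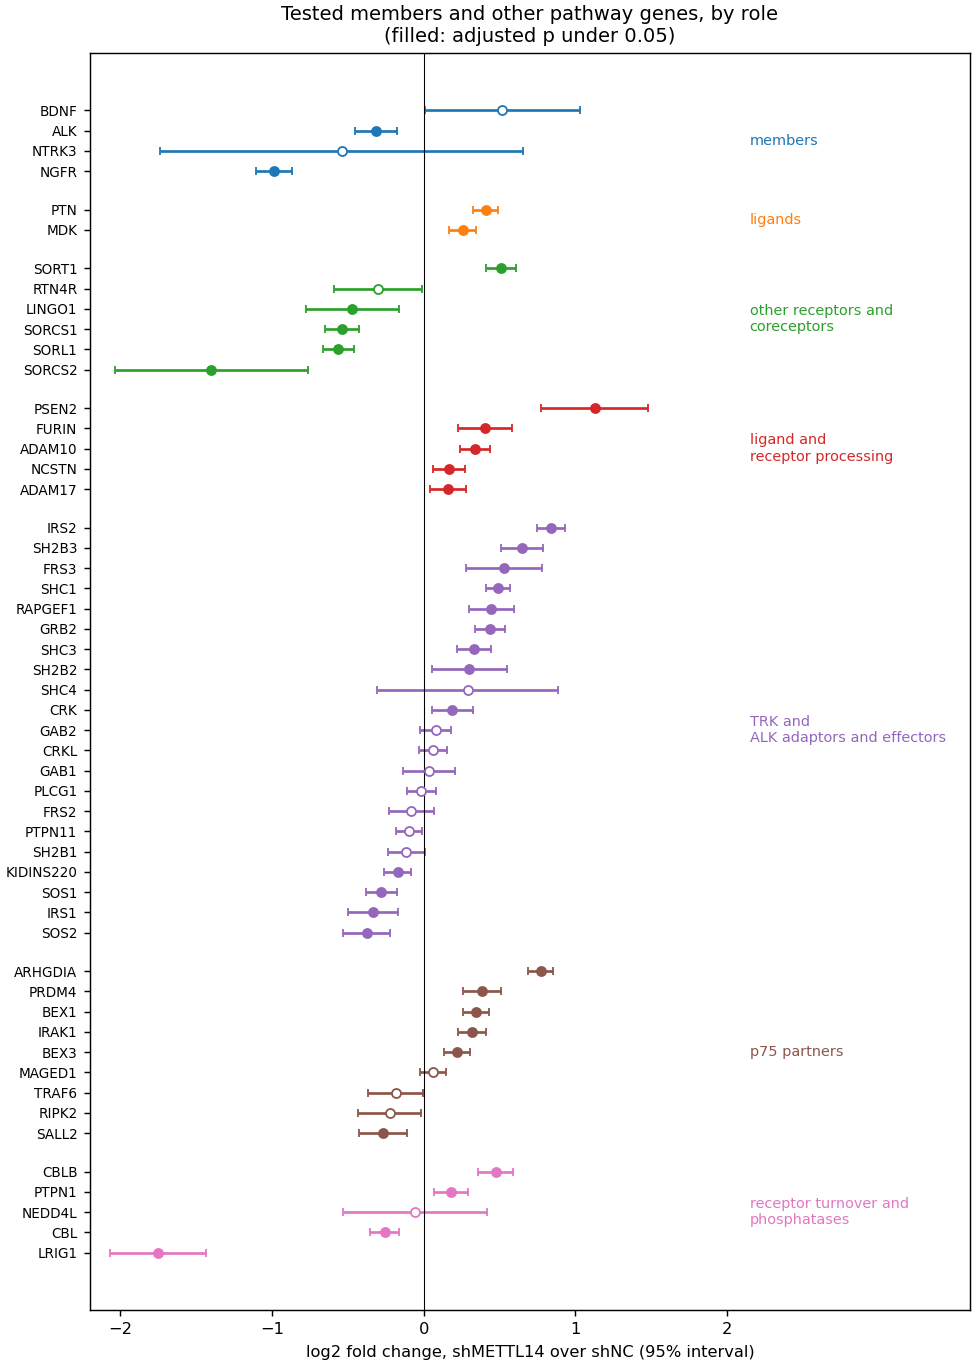
Log2 fold changes (shMETTL14 over shNC) with 95% intervals of the tested members and of the 48 tested genes of the pathway list, grouped by role and by colour, with filled points for called genes. The 5 processing enzymes lie above 0, whereas the coreceptors spread from -1.40 for SORCS2 to 0.51 for SORT1.

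The genes whose profile over the 4 libraries was most like that of each called member were found among 10704 coding genes by the Euclidean distance between centred log2 CPM profiles. For ALK these were DKK3, C5orf34 and KMT2E, at distances of 0.00974, 0.0107 and 0.0232. For NGFR they were PLA2G6, IGFBP4 and FAM72C, at distances of 0.0259, 0.0322 and 0.0342. FAM72C belongs to a family of near-identical copies, so its counts are uncertain. With 4 libraries in 2 groups this likeness mostly restates an equal fold change.

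**Figure D5:**
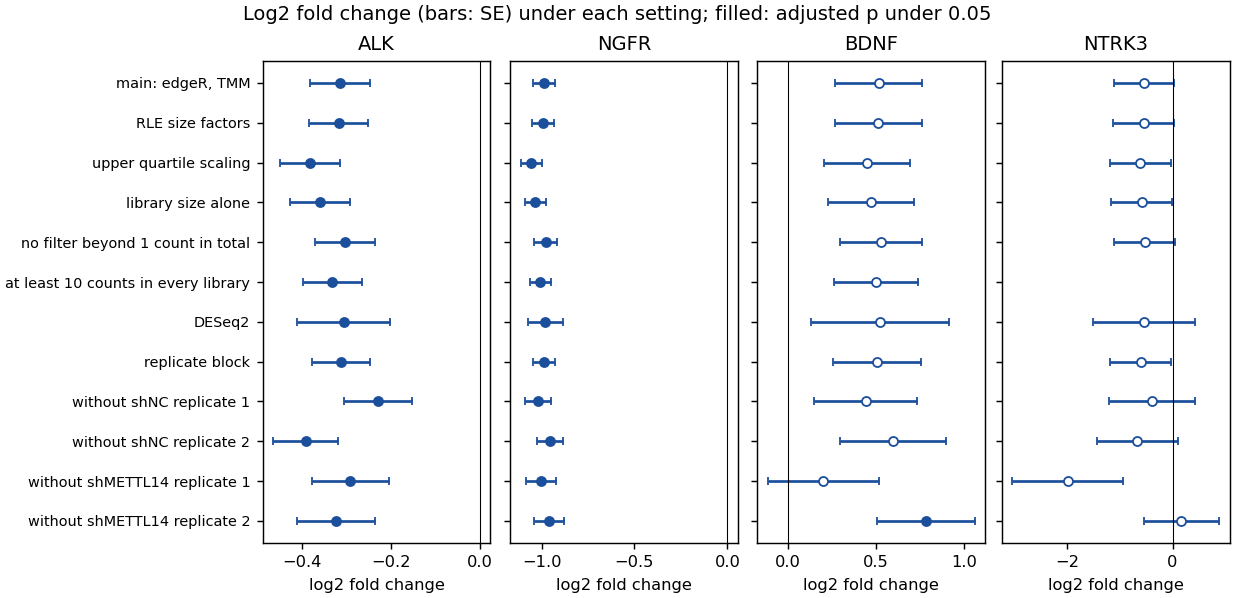
Log2 fold changes (points) and SE (bars) of the 4 tested members under the setting reported here and under each alternative, with filled points for an adjusted p under 0.05. ALK stays between -0.39 and -0.23 and NGFR between -1.06 and -0.95, while BDNF and NTRK3 move with the shMETTL14 library that is left out.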

How the data were processed

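RNA was measured in 4 libraries of SK-N-BE(2) cells. The authors deposited raw read counts per Ensembl gene, without normalization. The submitters' processing notes name HISAT2 2.1.0, StringTie 1.3.6, HTSeq 0.13.5, edgeR and GRCh38. The annotation release and strand setting are not given in the sources used here. Lines naming no gene (19.1% to 19.9% of counts) were left out. Of 60671 identifiers, 58453 were in GENCODE 29, which gave coordinates, exon lengths and transcript sequences. The test was edgeR 4.0.16 in R 4.3.3 (quasi-likelihood F-test, TMM, filterByExpr with a minimum count of 10 and total of 15, Benjamini-Hochberg adjustment over 16309 genes, group as the only term). It was checked on simulated counts. CPM used TMM-scaled sizes, and TPM used exon lengths. Alternatives were DESeq2 1.42.0, other scalings and filters, a replicate block and leaving out each library. The members and lists were chosen with earlier results of these data known. Genes were named if they were members, METTL14, pathway or marker genes, or the 3 closest profiles to a called member. Genes overlapping a member were added after their values were seen. Some genes of the pathway and marker lists are not reported here and were left out of the lists' counts and sums.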

Additional observations from a re-analysis of the deposited data

How the results depend on the processing

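ALK and NGFR kept their direction and their call under all 11 alternatives, at -0.39 to -0.23 and -1.06 to -0.95 on the log2 scale, as did METTL14 at -1.33 to -1.21. With DESeq2 the number of called genes went from 8561 to 5546 and the number also at 2-fold from 1433 to 913, and the cause was not tested. Asking for 10 counts in every library left 930 at 2-fold, and the cause of that drop was not tested either. Each library was also left out in turn, with the lone sample assumed to vary like the others. The fitted log2 fold changes were then -1.99 to 0.17 for NTRK3 and 0.20 to 0.78 for BDNF. The reversed value of 0.17 for NTRK3 came without shMETTL14 library 2. For LTK the values of 0.64 to 1.98 were not fitted but were log2 ratios of summed counts after scaling. Shared replicate numbers did not pair the libraries (correlation of deviations, Pearson -0.0015, Spearman 0.0217 over 16309 genes). With the replicate block 8926 genes were called, 1454 of them at 2-fold, as were 2 members (ALK at -0.31, NGFR at -0.99) and 37 pathway genes, while BDNF was at 0.51 (edgeR adjusted p = 0.0720) and NTRK3 at -0.61. Among pathway genes 7 calls were lost and 6 were gained under at least 1 alternative, 5 of the gained ones lower, and no called gene changed sign. The largest shift of the median gene by another scaling was -0.0676 on the log2 scale (upper quartile). NTRK2 gave no value without shMETTL14 library 1, LTK and NTRK2 could not be fitted with the block, and LTK, NTRK2 and NTRK3 left the test when 10 counts were asked for in every library. Counts of 16 or fewer per library limit what can be said of LTK, NTRK2 and NTRK3.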
